A study of Homo sapiens with 30 samples.

Results

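The comparison described here sets 12 bead arrays of knockdown set 2 against 12 bead arrays of knockdown set 1. These 24 arrays were all those of the series' 30 that carried a label of shATM, shATR, shCHK1 or shCHK2, and the 6 shControl arrays were not used. The RNA was from MCF-10A by label, an immortalized but non-transformed human breast epithelial line. All cultures were described as overexpressing cyclin E and as holding a stable short hairpin RNA (shRNA) against ATM, ATR, CHK1 or CHK2, with harvest 48 hours after seeding. Both sets thus had the same cell line, the same cyclin E overexpression and the same 4 shRNA names, with 3 replicates for each shRNA and set. The labels do not say how the sets differ (infection, clone, hairpin sequence, culture or array run), so these cannot be told apart. They also do not say whether replicates were separate cultures, and the p-values below measure the spread between arrays, which may be technical.

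ATM and ATR are kinases that sense broken DNA and stalled replication forks, and CHK1 and CHK2 (genes CHEK1 and CHEK2) are the kinases they activate in turn. Cyclin E drives entry into S phase, and its excess disturbs replication. MCF-10A cells grow in culture as basal-like epithelium, which can take on features of squamous keratinocytes, such as cornified envelope proteins and kallikrein proteases, and which secretes matrix metalloproteinases and cytokines. The comparison asks how much expression differed between cultures of the same name, and whether the difference was the same under each shRNA.

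The targeted genes were measured first, each against the mean of the other 3 shRNAs of its set. ATM was lower under shATM by a log2 difference of -0.77 ± 0.09 (standard error, SE; 3 arrays against 9) in set 1 and -0.67 ± 0.09 in set 2. CHEK1 was lower under shCHK1 by -1.20 ± 0.09 and -1.45 ± 0.09, with the own arrays below all the others in both sets. CHEK2 differed under shCHK2 by -0.35 ± 0.10 in set 1 (limma adjusted p = 0.0185) and by -0.76 ± 0.10 in set 2. The set 1 value of CHEK2 did not pass without the first shCHK2 array of that set (adjusted p = 0.121), without the second (0.061) or after median scaling (0.391). ATR was not lower under shATR, at 0.40 ± 0.13 in set 1 (adjusted p = 0.187) and 0.23 ± 0.13 in set 2 (adjusted p = 0.398), with its probe detected on 7 of 12 and 4 of 12 arrays. Over all genes these contrasts called 12% and 10.2% of 13040 genes for shATM in sets 1 and 2, 1.67% and 2.52% for shATR, 7.6% and 1.7% for shCHK1, and 12.7% and 5.19% for shCHK2. The arrays of shATR are therefore called by their label only.

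Genes expected in the line, KRT5, KRT14, CDH3, EGFR, ITGA6, VIM and CDH1, were detected on all 12 arrays of each set. KRT17 and TP63, also expected, had no probe. ESR1 and PGR, expected to be absent, were detected on at most 1 array. CDKN2A and CDKN2B, which MCF-10A is known to have lost, were also detected on all 24 arrays, with set medians of 8.72 and 9.14 (log2 intensity) for CDKN2A and 7.62 and 6.48 for CDKN2B, which goes against the label. Of 10 leukocyte markers with a probe, CD68, CD14, HLA-DRA and LYZ were detected on most arrays of both sets, while PTPRC, CD3E, ITGAM, CD74, TYROBP and FCER1G were at background on all arrays but 1. The summed intensity of the leukocyte list was 1796 to 2461 in set 1 and 1942 to 2856 in set 2. None of 7 endothelial markers was detected on most arrays of a set, and of 8 fibroblast markers FAP and THY1 were (summed intensity 256.3 to 510.5 and 361.7 to 555.3). In bulk RNA, fewer cells of a type and less RNA per cell cannot be told apart.

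Each array detected between 18984 and 21732 probes, with set medians of 20659.5 in set 1 and 19388.5 in set 2. Signal over background ranged from 16.7 to 23.5. The first principal component held 53.8% of the variance and separated the sets, from -36.0 to -23.1 in set 1 and from 24.4 to 34.98 in set 2. Replicate arrays correlated at 0.987 to 0.996 across genes, arrays of another shRNA in the same set at 0.980 to 0.994, and arrays of the same shRNA in the other set at 0.963 to 0.975. The third shCHK2 array of set 1 and the third shATR array of set 2 stood apart from their replicates on the second component. Without both, the counts given next moved by less than 1.5 times.

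**Figure D1:**
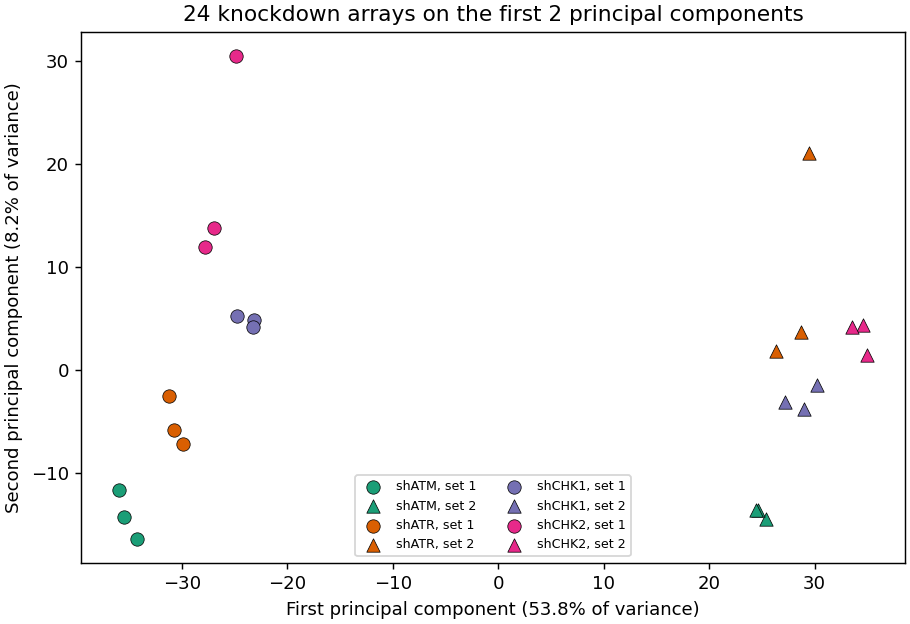
Each point is 1 of the 24 knockdown arrays, by shRNA (colour) and set (circles set 1, triangles set 2), on the first and second principal components of log2 intensity. Set 1 lies between -36.0 and -23.1 on the first component and set 2 between 24.4 and 34.98, with 2 arrays high on the second.

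Of 13040 genes tested, 7905 (60.6%) differed on average between the sets in limma's moderated test at an adjusted p under 0.05, and are called higher or lower below. Of these, 3398 (26.1%) were higher in set 2 and 4507 (34.6%) lower. After median scaling in place of quantile normalization the share of higher genes among those called was 30.9% rather than 42.99%, with the median of all genes at -0.11 rather than -0.03. Most differences were small: the median absolute difference was 0.24 and the median SE 0.07 on the log2 scale. The large ones lay mostly on the lower side, where 494 genes were at least 2-fold lower in set 2, 77 at least 4-fold and 16 at least 8-fold, against 199, 11 and 0 higher. In 1784 genes (13.7%) the 12 arrays of one set did not overlap the 12 of the other, with 1098 (8.42%) lower and 686 (5.26%) higher in set 2. With the 4 set differences as the only replicates, 5387 genes were called, of which 5366 were among the 7905, in the same direction.

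Taken within each shRNA, the set difference was called for 5150 genes in shATM (39.5%), 4921 in shATR (37.7%), 4850 in shCHK1 (37.2%) and 5506 in shCHK2 (42.2%). Any 2 of the 4 set differences correlated across the 13040 genes at Pearson's r between 0.707 (shATM and shCHK1) and 0.806 (shATM and shATR), with Spearman's rho between 0.649 and 0.740. Genes are not independent replicates, and the 4 set differences may share whatever separates the sets, so these values are descriptions. A pair of shRNAs shared between 3078 and 3567 genes called in the same direction, 59.8% to 73.5% of either list, and 55 to 115 genes called in opposite directions. All 4 shRNAs agreed in a called direction for 2271 genes (17.4%), of which 875 (6.71%) were higher and 1396 (10.7%) lower. After median scaling 435 genes were higher under all 4. Among the 7905 genes called on average, 6489 (82.1%) had the same sign under all 4 shRNAs, and 652 were called under no single shRNA. The slope of a set difference on the mean of the other 3 was 0.938 for shATM, 0.926 for shATR, 0.808 for shCHK1 and 0.974 for shCHK2.

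**Figure D2:**
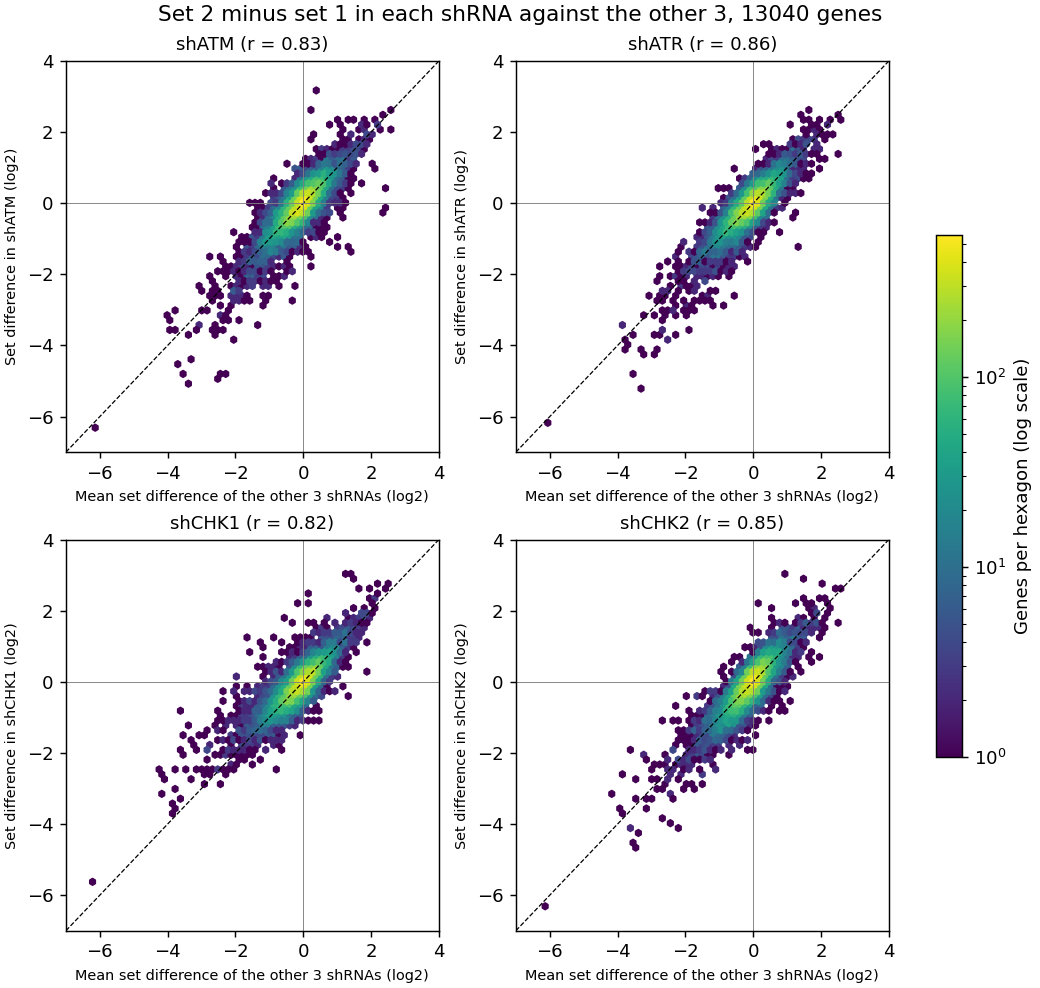
Each panel plots the set difference (set 2 minus set 1, log2) of one shRNA against the mean set difference of the other 3 across 13040 genes, with hexagon colour giving genes per hexagon on a log scale and a dashed line of equality. Genes run along the line in all 4 panels, with r of 0.83, 0.86, 0.82 and 0.85, and the lowest point in each is MMP10.

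Several probe measures moved with the set and bear on every gene read through a single probe. In 2372 genes with a second probe detected on all 24 arrays, both probes were called in 1336, and in 210 of these (15.7%) they pointed in opposite directions. The same count over the comparisons of an shRNA with the other 3 within a set was 8 of 814 (0.983%). Where both probes differed by at least 0.5 on the log2 scale, 14 of 312 (4.49%) pointed in opposite directions between the sets and 0 of 230 within them. Among small nucleolar RNAs, which guide the modification of ribosomal RNA and are not polyadenylated as a class, 44 of 182 (24.2%) were higher in set 2 under all 4 shRNAs and 1 lower, while protein-coding genes split as 6.37% higher and 11.4% lower. Transcripts annotated as pseudogenes were higher in all 4 in 33 of 301 cases (10.96%). The part of these probe differences in the results that follow was not tested.

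Among single genes, the widest gap was that of MMP10, stromelysin-2, a secreted metalloproteinase that degrades extracellular matrix. Its log2 intensity in set 1 was 12.12, 12.02 and 12.24 in shATM, 11.67, 11.66 and 11.69 in shATR, 10.93, 11.002 and 11.02 in shCHK1, and 11.30, 11.21 and 11.11 in shCHK2. In set 2 the same values were 5.86, 5.71 and 5.87, then 5.58, 4.92 and 5.80, then 5.22, 5.19 and 5.58, and last 4.58, 4.86 and 5.34. Every set 2 array of MMP10 was thus far below every set 1 array, and 9 of 12 still detected it. The average difference was -6.12 ± 0.09 (69.6-fold lower; limma adjusted p = 4.07e-22), from -5.65 in shCHK1 to -6.31 in shATM, and these 4 did not differ by the F test (adjusted p = 0.176).

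MMP10 and the cornified envelope gene SPRR1B are both known targets of AP-1, the dimer of FOS and JUN proteins. RefSeq's promoter table (GRCh38.p14) holds 8 of the 10 genes with the largest shared fall. Of these 8, MMP10, SPRR1B and SPRR3 held the AP-1 motif and the other 5 (AKR1C2, AKR1C4, GPX2, CEACAM6 and KLK5) did not. The 250 bases before the start of MMP10 and SPRR1B are shown as examples with the motif, chosen after the matches were seen. Capitals mark that motif, TGANTCA, where N is any base and which pairs with itself on the other strand. It starts 67 bases before the MMP10 start (chr11:102780629-102780878, minus strand) and 141 and 111 bases before that of SPRR1B (chr1:153030953-153031202, plus strand).
MMP10: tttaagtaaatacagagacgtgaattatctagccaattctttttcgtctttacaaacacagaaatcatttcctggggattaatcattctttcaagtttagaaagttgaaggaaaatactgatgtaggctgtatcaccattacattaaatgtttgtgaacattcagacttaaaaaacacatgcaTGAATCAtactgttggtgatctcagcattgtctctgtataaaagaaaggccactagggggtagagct
SPRR1B: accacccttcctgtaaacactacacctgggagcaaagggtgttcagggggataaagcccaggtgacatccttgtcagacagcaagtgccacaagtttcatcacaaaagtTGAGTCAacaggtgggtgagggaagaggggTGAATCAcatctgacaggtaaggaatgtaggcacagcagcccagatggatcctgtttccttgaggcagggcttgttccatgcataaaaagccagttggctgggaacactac
In windows from 250 bases before to 50 after the start, 90 of 1129 genes lower under all 4 shRNAs held TGANTCA (7.97%), against 22 of 668 genes higher under all 4 (3.29%). The share was 4.84% over all genes tested with a promoter entry and 7.71% over all promoters in the table. The core of the antioxidant response element bound by NRF2, TGACNNNGC on either strand, was in 16.6% of the lower and 15.1% of the higher promoters, against 15.4% of all tested and 13.3% of the table. A match is a description of the sequence and not a measured binding site. Whether AP-1 or NRF2 had a part in the set difference was not tested.

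**Figure D3:**
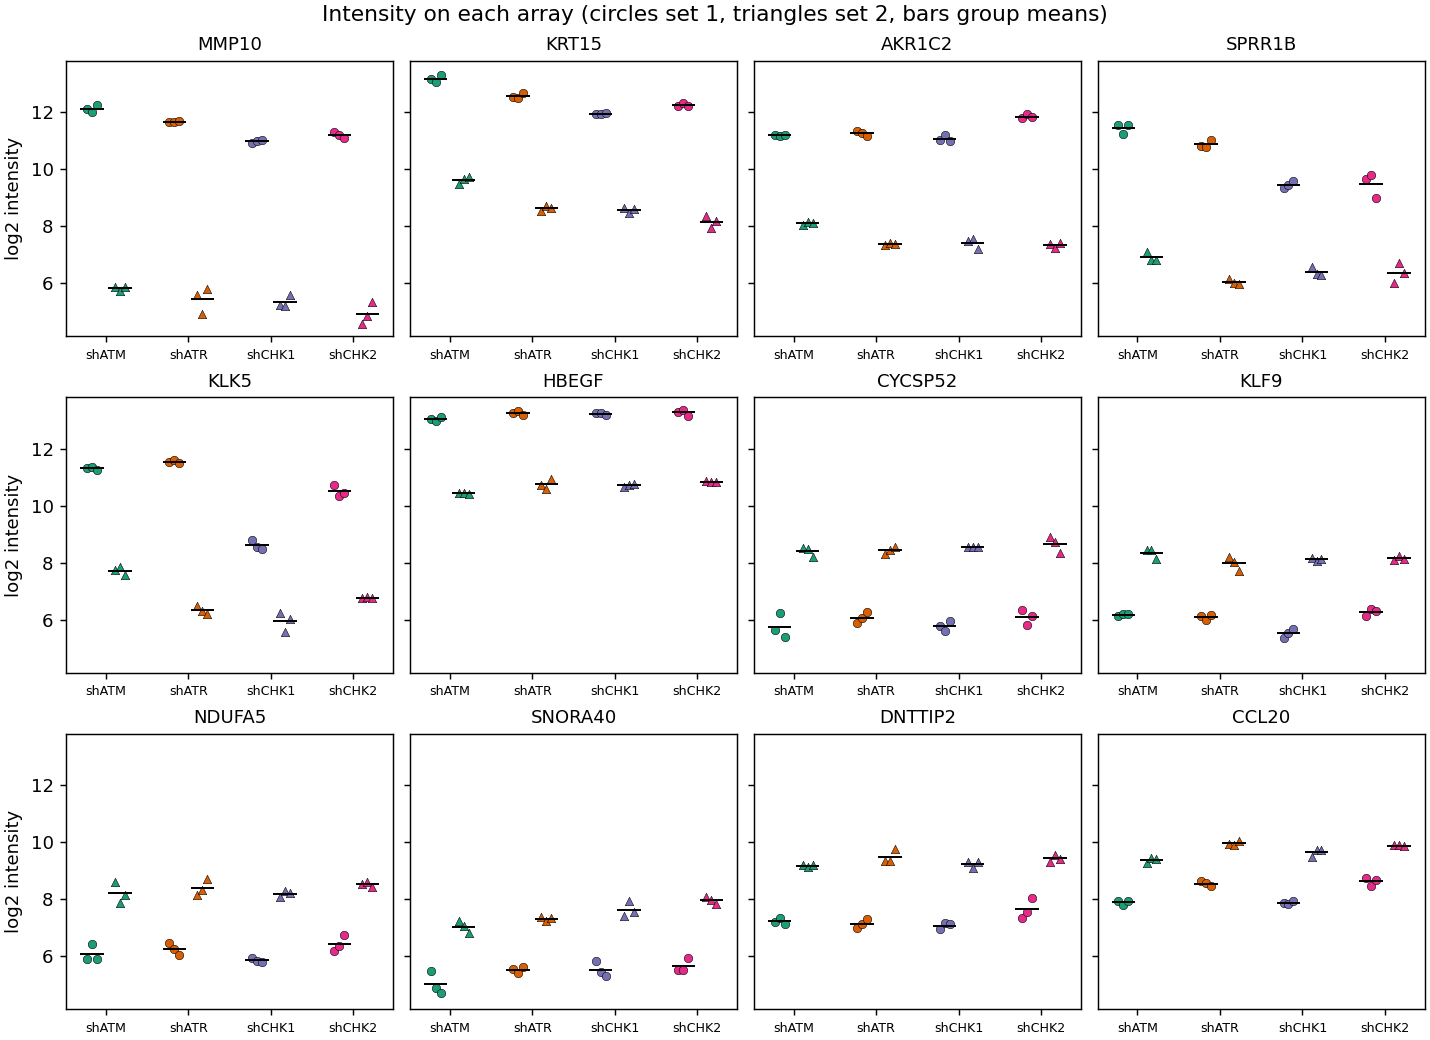
Each panel gives the log2 intensity of one gene on all 24 arrays, by shRNA, with circles for set 1, triangles for set 2 and bars for the mean of 3 arrays. In the 6 genes from MMP10 to HBEGF set 2 lies below set 1 under every shRNA, and in the 6 from CYCSP52 to CCL20 it lies above.

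The other 9 genes with the largest shared fall were KRT15, AKR1C2, AKR1C4, GPX2, SPRR1B, KLK5, SPRR3, MMP3 and CEACAM6. KRT15, a keratin of basal epithelial cells, had a log2 intensity of 11.92 to 13.29 in set 1 (median 12.41) and 7.93 to 9.73 in set 2 (median 8.62), a difference of -3.74 ± 0.05 (adjusted p = 2.51e-22). AKR1C2, an aldo-keto reductase of steroid and aldehyde metabolism, lay at 10.98 to 11.93 and at 7.20 to 8.15 (-3.78 ± 0.05). AKR1C4 differed by -3.57 ± 0.07, though probes of these near-identical paralogs may read each other's transcripts. GPX2, a glutathione peroxidase of epithelia, went from 7.92 to 9.15 in set 1 down to 4.59 to 5.92 in set 2 and was detected on 9 of 12 set 2 arrays (-3.21 ± 0.13). None of these 4 genes had overlapping sets, which their choice by a large difference under every shRNA makes nearly certain.

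Among the squamous genes, SPRR1B lay at 8.9996 to 11.57 in set 1 (median 10.30) and at 5.98 to 7.09 in set 2 (median 6.33), a difference of -3.90 ± 0.09. KLK5, a serine protease that loosens the cornified layer, lay at 8.48 to 11.60 and at 5.58 to 7.85 (-3.80 ± 0.07), with its 2 further probes at -3.99 and -2.33. SPRR3, a further envelope precursor, was not well above background on any set 2 array and was at least 7.92-fold lower there. For such genes the bound sets the bright mean against the dimmest detected probe of each dim array. MMP3, stromelysin-1, was detected on 12 set 1 arrays (7.95 to 9.50) and on 1 set 2 array, and CEACAM6, an adhesion protein of epithelial surfaces, likewise (7.09 to 9.43, then 1 array). No set 2 array detected MMP3 under shATM, shCHK1 or shCHK2, where it was at least 8.49-fold, 9.68-fold and 20.6-fold lower. CEACAM6 was at least 20.2-fold lower under shATM and at least 5.21-fold under shCHK1.

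The 10 genes with the largest shared rise moved less and were of mixed kind. KLF9, a Kruppel-like transcription factor known as an early target of glucocorticoid receptor, lay at 5.37 to 6.35 in set 1 (median 6.12) and at 7.69 to 8.46 in set 2 (median 8.13), a difference of 2.14 ± 0.06 (4.41-fold; adjusted p = 2.4e-17). NDUFA5, a subunit of respiratory complex I, went from 5.80 to 6.74 up to 7.86 to 8.72 (2.18 ± 0.09), and DNTTIP2, a nucleolar protein, from 6.94 to 8.05 up to 9.08 to 9.74 (2.05 ± 0.07). ZNG1A, a zinc chaperone with near-identical copies, differed by 2.23 ± 0.08 and its second probe by 1.45. PDF, the mitochondrial peptide deformylase, differed by 2.45 ± 0.12 on its brighter probe but by 0.30 on its second, which was below zero in one shRNA at -0.13.

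The remaining 5 were noncoding or multicopy. SNORA40, an H/ACA small nucleolar RNA, was detected on 10 set 1 and 12 set 2 arrays and differed by 2.06 ± 0.09. The probe of MIR574, a microRNA gene, differed by 2.22 ± 0.12, but an array of this kind does not tell which form of that transcript it read. CYCSP52 and ACTG1P4, annotated pseudogenes of cytochrome c and gamma-actin, differed by 2.59 ± 0.09 and 1.89 ± 0.11, and HNRNPCL2, a paralog of HNRNPC, by 1.96 ± 0.09. Signals of these 3 probes cannot be told apart from those of their parent genes. All 10 genes had sets that did not overlap, and all 10 were also called with the 4 set differences as replicates, KLF9 at a limma adjusted p of 4.47e-05. These genes were chosen for a large difference under every shRNA, which makes both outcomes nearly certain, so neither adds support.

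Squamous differentiation genes were mostly lower in set 2. Counts in this and the following lists stand against all genes tested, of which 26.1% were higher, 34.6% lower and 60.6% called. Under all 4 shRNAs the shares over all genes were 6.71% higher and 10.7% lower. Of 29 keratinocyte differentiation genes tested, 27 were lower in set 2, 1 was higher (TGM1) and 1 was not called, with a median of -1.61 against -0.03 for all genes. In the authors' deposited log2 values the median was -0.82, with 27 called lower. In 16 of them the fall was called under all 4 shRNAs, and in 21 the 4 set differences differed by the F test (background 13.6%). The medians by shRNA were -2.23 in shATM, -2.42 in shATR, -0.81 in shCHK1 and -1.23 in shCHK2. SPRR1B itself differed by -4.54 in shATM and -4.84 in shATR, against -3.08 in shCHK1 and -3.14 in shCHK2 (F test adjusted p = 2.8e-05). IVL, involucrin, a scaffold of the envelope, was detected on 9 set 1 and 3 set 2 arrays and differed by -0.32 ± 0.10. TGM1, the transglutaminase that cross-links the envelope, was near background at a median of 5.0009 and 5.28 (0.27 ± 0.10, adjusted p = 0.0264) and missed the threshold with the 4 set differences as replicates (adjusted p = 0.103).

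Basal keratins and adhesion genes were lower as well. All 13 basal epithelial genes tested were lower in set 2, 9 of them under all 4 shRNAs, with a median of -0.79. Over all genes tested 34.6% were lower, and 10.7% under all 4 shRNAs. KRT14, the keratin partner of KRT5 in basal cells, went from 9.80 to 12.002 in set 1 down to 7.18 to 8.51 in set 2 (-3.20 ± 0.07), with -4.10 in shATR and -1.91 in shCHK1. The least affected members were TRIM29 (-0.41 ± 0.07) and EGFR, the epidermal growth factor receptor (-0.23 ± 0.06). EGFR was not called when shCHK2 was left out (adjusted p = 0.104) or with the 4 set differences as replicates (0.125).

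Among 21 epithelial junction genes 18 were lower, 1 higher and 2 not called, with a median of -0.67. JUP, plakoglobin of desmosomes and adherens junctions, lay at 11.67 to 12.46 and at 9.75 to 10.61 (-1.81 ± 0.07), and its 2 further probes gave -1.75 and -1.81. DSG3, a desmosomal cadherin of basal layers, differed by -1.74 ± 0.07. The one higher member was GJA1, connexin 43 of gap junctions, at 10.19 to 10.76 in set 1 and 10.99 to 11.46 in set 2 (0.61 ± 0.05). EPCAM differed by -0.15 ± 0.04 on its brightest probe and by 0.74 and -0.07 on its others, so that its direction is not settled. Of 15 luminal epithelial genes, 11 were lower and 1 higher (median -0.50, or -0.29 in the authors' deposited log2 values). LCN2, lipocalin-2, an iron-scavenging secreted protein, was the lowest at -3.75 ± 0.08 (9.44 to 12.12, then 6.03 to 7.72), followed by SLPI, a secreted protease inhibitor, at -2.22 ± 0.06. MUC1, a membrane mucin, was at -0.24 ± 0.09, and KRT18, a simple epithelial keratin, was higher by 0.26 ± 0.06. With the 4 set differences as replicates, neither MUC1 (adjusted p = 0.278) nor KRT18 (0.111) passed.

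**Figure D4:**
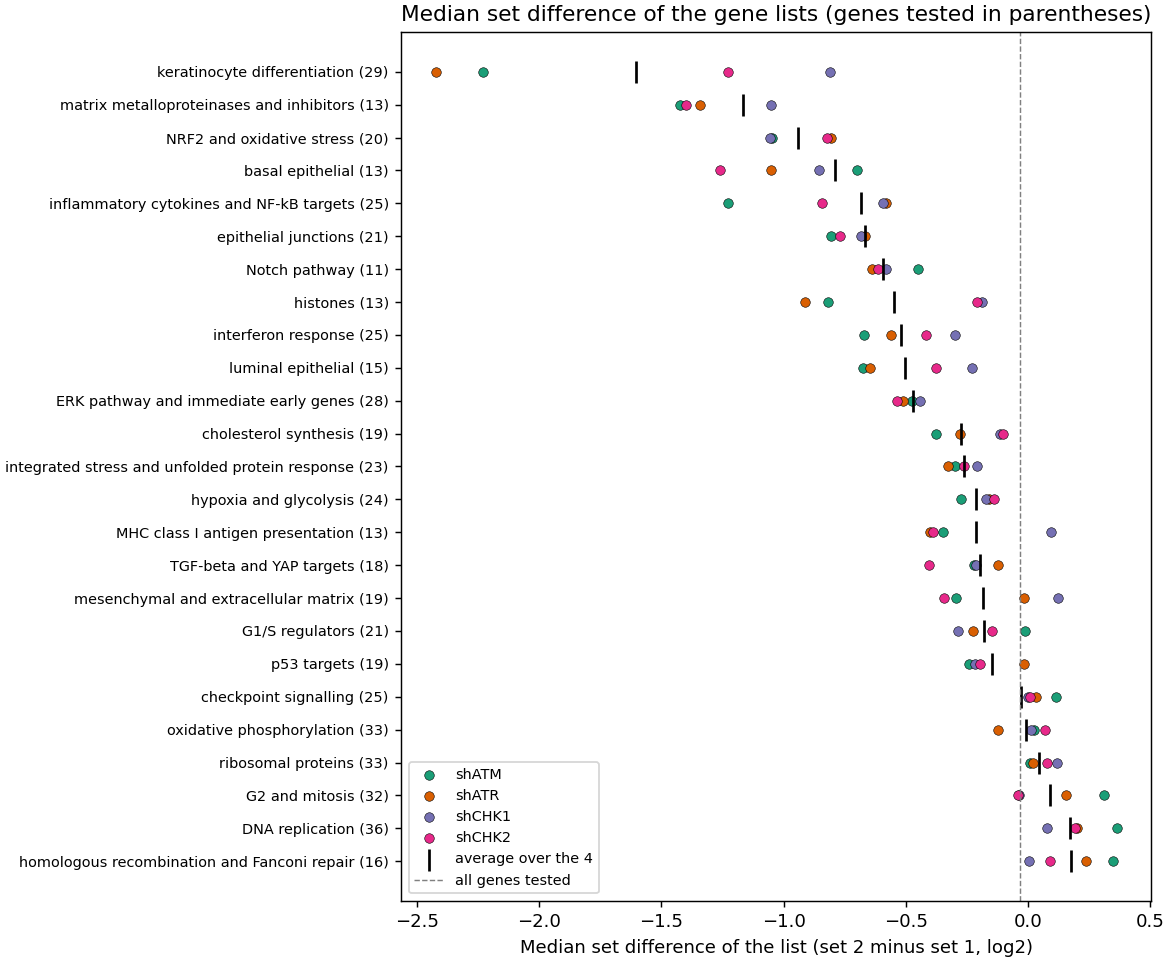
Each line is a gene list with at least 10 genes tested, with the median set difference (set 2 minus set 1, log2) under each shRNA as a coloured point, the median of the average as a bar, and the median of all genes tested as a dashed line at -0.03. Keratinocyte differentiation lies lowest, at -1.61, and homologous recombination and Fanconi repair highest, at 0.18.

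Proteases of the matrix followed MMP10. Of 13 metalloproteinases, plasminogen activators and inhibitors tested, 12 were lower and 1 was not called, with a median of -1.17 and 9 lower under all 4 shRNAs. After MMP10 and MMP3 the smallest called differences were in PLAT, tissue plasminogen activator (-0.56 ± 0.08), and TIMP3, an inhibitor of metalloproteinases (-0.29 ± 0.06). TIMP3 was 0.30 in shATM and between -0.38 and -0.65 in the others (F test adjusted p = 0.00272), and was not called with the 4 set differences as replicates (adjusted p = 0.160).

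Genes of the NRF2 response to oxidants were lower in 18 of 20 cases and higher in 2, with a median of -0.94, and 13 were lower under all 4 shRNAs. Their medians by shRNA lay close together, from -0.81 in shATR to -1.06 in shCHK1. Even so, 5 of the 20 differed between shRNAs by the F test (background 13.6%). AKR1C2 and GPX2, given above, were the lowest. The 2 higher genes were GSR, glutathione reductase (0.45 ± 0.06, second probe 0.43), and GCLC, the catalytic subunit of glutathione synthesis (0.20 ± 0.05). The second GCLC probe was higher by 1.60, but GCLC was not called with the 4 set differences as replicates (adjusted p = 0.110).

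Among inflammatory cytokines and NF-kB targets 20 of 25 were lower, 2 higher and 3 not called, with a median of -0.68. IL36G, an interleukin-1 family cytokine of epithelia, lay at 7.27 to 10.51 in set 1 and 5.19 to 6.47 in set 2, with differences of -4.96 in shATM, -3.66 in shATR, -2.06 in shCHK1 and -1.90 in shCHK2. PTGS2, inducible cyclooxygenase, was at -2.65 ± 0.05 on one probe and -2.63 on the other. Against this direction CCL20, a chemokine that attracts CCR6-bearing cells, lay at 7.79 to 8.74 in set 1 and 9.27 to 10.03 in set 2 (1.47 ± 0.05, adjusted p = 1.18e-16) and rose under every shRNA, from 1.25 to 1.76. NFKB1, which encodes the p105 precursor of an NF-kB subunit, was higher by 0.47 ± 0.06, from 0.04 in shATM to 0.87 in shATR.

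Interferon response genes were lower in 17 of 25 cases and higher in 2 (median -0.52, or -0.23 in the authors' deposited log2 values). By the F test 13 of the 25 differed between shRNAs (background 13.6%). IFIT1, an antiviral RNA sensor, was at -1.67 ± 0.11, with -2.64 in shATR and -0.73 in shCHK1, although its dim second probe gave 0.14. ISG20, an antiviral exonuclease, was at -1.44 ± 0.06. XAF1 (0.47 ± 0.05) and IFI44L (0.25 ± 0.10) were the higher ones, IFI44L not in the authors' deposited log2 values (adjusted p = 0.062). Of 13 MHC class I genes, 7 were lower and none higher (median -0.21), but after median scaling 9 were lower and 1 higher (median -0.37). The share called was 53.8%, against 60.6% of all genes tested. The median of the list was 0.09 in shCHK1 and between -0.35 and -0.40 under the other shRNAs. TAPBP, which loads peptide onto class I, was at -1.02 ± 0.05, HLA-E at -0.83 ± 0.05 and HLA-C at -0.46 ± 0.09. PSMB8, an immunoproteasome subunit, was at -0.21 ± 0.06 on its brightest probe, with its 3 other probes between 0.05 and 0.26, and was not called with the 4 set differences as replicates (adjusted p = 0.232).

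Growth factor signalling genes were mostly lower. Of 28 genes of the ERK pathway and immediate early response 21 were lower, 2 higher and 5 not called (median -0.47), 13 of them lower under all 4 shRNAs. HBEGF, a ligand of the epidermal growth factor receptor, lay at 12.98 to 13.36 in set 1 and at 10.41 to 10.92 in set 2. Its 4 set differences were -2.62, -2.51, -2.52 and -2.43 (average -2.52 ± 0.04, adjusted p = 6.63e-21) and did not differ by the F test (adjusted p = 0.681). FOSB, a partner in AP-1, was at -1.98 ± 0.12 (7.78 to 9.56, then 5.50 to 7.33). The higher genes were MYC, a growth-promoting transcription factor (0.58 ± 0.06, second probe 1.12), and SPRY1, a feedback inhibitor (0.77 ± 0.05), whose further probes gave 0.15 and 0.01.

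Notch pathway genes were lower in 8 of 11 cases and higher in none (median -0.59), with 72.7% called against 60.6% of all genes tested. The ligands DLL1 and JAG1 were lowest, at -1.50 ± 0.06 and -1.48 ± 0.07, with JAG1 at -2.29 in shCHK2 and -0.996 in shATR. MAML1, a coactivator, was at -0.47 ± 0.10, and the ligand JAG2 at -0.31 ± 0.07 on average but 0.30 in shATM. JAG2 was not called with the 4 set differences as replicates (adjusted p = 0.147). TGF-beta and YAP targets were lower in 10 of 18 and higher in 4 (median -0.19), with 77.8% called. The lowest were BMP2, a secreted morphogen (-1.53 ± 0.06), and PMEPA1, a TGF-beta feedback gene (-0.77 ± 0.07). ID3, an inhibitor of helix-loop-helix factors, was higher on average (0.36 ± 0.06) but ranged from -0.13 in shATM to 1.11 in shCHK2 and was not called without shCHK2 (adjusted p = 0.190) or with the 4 set differences as replicates (0.166). ANKRD1, a YAP target, was detected on 1 set 1 array and 8 set 2 arrays. It was at least 1.18-fold higher under shATM and at least 1.27-fold under shCHK1, and neither set detected it under shCHK2.

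Mesenchymal and matrix genes split, with 7 of 19 higher and 10 lower (median -0.18, but -0.06 in the authors' deposited log2 values and -0.08 after median scaling). The share called was 89.5%, against 60.6% of all genes tested. SPARC, a secreted matrix protein, was at -1.08 ± 0.06, from -0.29 in shATM to -1.50 in shATR, and TNC, tenascin-C, at -0.94 ± 0.07 with a second probe at -1.98. TAGLN, an actin-binding protein of contractile cells, was higher by 0.57 ± 0.11 and COL4A1, a basement membrane collagen, by 0.44 ± 0.05. Of the 4 leukocyte markers tested, LYZ (0.64 ± 0.12, undetected in set 1 under shCHK2) and HLA-DRA (0.29 ± 0.07) were higher, and CD68 and CD14 were not called. A second HLA-DRA probe, detected on 9 set 1 and 3 set 2 arrays, gave -0.08. FAP, a surface protease of fibroblasts, averaged -0.27 ± 0.08 but went both ways, with 0.11 in shATM, -0.85 in shATR, 0.55 in shCHK1 and -0.88 in shCHK2. It was not called with the 4 set differences as replicates (adjusted p = 0.398) or with a random block for each group (0.166). COL1A1, a fibrillar collagen, was at background, being detected on 5 set 1 arrays and 1 set 2 array, and was not called with the 4 set differences as replicates (adjusted p = 0.0760). DCN, decorin, was 4.75, 4.39 and 4.53 in shATM set 1, where no array detected it, and 7.31, 7.42 and 6.82 in shATM set 2, at least 4.70-fold higher. Under the other shRNAs DCN stayed at 5.74 or less, and its average was not called without shATM (adjusted p = 0.330). One further DCN probe, detected on 0 set 1 and 3 set 2 arrays, differed by at most 1.38 under any shRNA. Another, detected on 4 and 2 arrays, differed by at most 0.12 upward and averaged -0.05.

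Genes of DNA replication were more often higher than lower. Of 36 tested, 18 were higher in set 2, 6 lower and 12 not called, with a median of 0.17, and 8 were higher under all 4 shRNAs. The share called, 66.7%, was near the 60.6% of all genes tested, of which 26.1% were higher and 34.6% lower. The median of the list ran from 0.08 in shCHK1 to 0.36 in shATM. GMNN, geminin, the inhibitor of origin relicensing, went from 9.71 to 10.75 up to 10.61 to 11.24 (0.81 ± 0.07), and POLE2, a subunit of DNA polymerase epsilon, from 8.19 to 8.92 up to 9.03 to 9.57 (0.81 ± 0.05). The helicase subunits MCM4 (-0.46 ± 0.04, second probe -0.20) and MCM2 (-0.43 ± 0.07) were lower. Homologous recombination and Fanconi genes were higher in 9 of 16 cases and lower in 2 (median 0.18), but after median scaling in 5 and 4 (median 0.02). The share called was 68.75%, and 1 gene was higher under all 4 shRNAs. Here the median ran from 0.004 in shCHK1 to 0.35 in shATM. BRCA1, a mediator of recombination, rose from 8.43 to 8.85 up to 9.25 to 9.53 (0.77 ± 0.05, second probe 0.65), and XRCC2 was higher by 0.58 ± 0.13. NBN, a sensor of broken ends, was at -0.48 ± 0.07 and BARD1, the partner of BRCA1, at -0.29 ± 0.05. BARD1 had group means of 7.93 and 7.96 in sets 1 and 2 of shATM, and was not called with the 4 set differences as replicates (adjusted p = 0.0585).

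Checkpoint signalling genes were higher in 9 of 25 cases and lower in 6, with a median of -0.03, equal to that of all genes, but higher in 6 and lower in 11 after median scaling. The share called, 60%, was near the 60.6% of all genes tested. TIPIN, a fork protection factor, was higher by 0.91 ± 0.06 and CHEK2 by 0.60 ± 0.06, with a second CHEK2 probe at 0.81. TP53BP1, a scaffold at breaks, was at -0.71 ± 0.06 and RAD17, a clamp loader, at -0.52 ± 0.08. ATM was higher by 0.20 ± 0.06 on its brightest probe and lower by 0.39 on its second, and was not called with the 4 set differences as replicates (adjusted p = 0.146). CHEK1 (-0.03 ± 0.05, adjusted p = 0.669) and ATR (-0.08 ± 0.08, adjusted p = 0.426) were not called. CCNE1, the gene of cyclin E1, was at -0.25 ± 0.07, but -0.95 in shATR and between -0.15 and 0.09 elsewhere. Without shATR it was -0.02 (adjusted p = 0.866), and the sources do not say whether its probe reads the introduced sequence. A second CCNE1 probe, detected on only 2 set 1 and 3 set 2 arrays, averaged 0.16, with -0.02 as the lowest value under any shRNA.

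G1/S regulators were lower in 11 of 21 cases and higher in 7 (median -0.18), with 85.7% called against 60.6% of all genes tested. CDKN1A, the p21 inhibitor of cyclin-dependent kinases, fell from 12.81 to 13.70 down to 11.41 to 12.27 (-1.45 ± 0.07), though its second probe gave -0.31. CCND1, cyclin D1, was at -1.03 ± 0.04, with -1.47 in shCHK1 and -0.60 in shATM. CCNE2 (0.78 ± 0.13) and the transcription factor E2F1 (0.76 ± 0.12) were higher, CCNE2 being detected on 7 set 1 and 12 set 2 arrays. Of 19 p53 targets, 9 were lower and 7 higher (median -0.15, 84.2% called), with 1 higher after median scaling. TP53INP1, a stress-induced nuclear protein, was lowest at -1.46 ± 0.08. RRM2B, a ribonucleotide reductase subunit, was at 0.35 ± 0.07 but its second probe at -0.55 (adjusted p = 0.0874 with the 4 set differences as replicates), and AEN, a nuclease, at 0.32 ± 0.05 with a second probe at -0.07.

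G2 and mitosis genes were higher in 12 of 32 and lower in 7 (median 0.09, or 0.05 after median scaling), with 59.4% called against 60.6% of all genes tested. Those at the ends were MAD2L1, a spindle checkpoint protein (0.93 ± 0.06, second probe 2.03), CCNB1, cyclin B1 (0.69 ± 0.06), UBE2C, a ubiquitin-conjugating enzyme of mitotic exit (-0.49 ± 0.04, second probe -0.08), and PTTG1, securin (-0.39 ± 0.07). The median of the G2 and mitosis list was 0.31 in shATM and 0.16 in shATR, but -0.04 in both shCHK1 and shCHK2. In 14 of the 32 genes the 4 set differences differed by the F test (background 13.6%). Histone genes were lower in 9 of 13 cases and higher in 1 (median -0.55, or -0.22 in the authors' deposited log2 values). The medians by shRNA were -0.82 and -0.91 in shATM and shATR and -0.19 and -0.21 in shCHK1 and shCHK2. H2BC5 was at -2.84 in shATM and -0.36 in shCHK1 (F test adjusted p = 1.8e-08), and H2BC21 was at -1.31 ± 0.08. H2AZ1, a replication-independent variant, was higher by 0.28 ± 0.05.

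Metabolic and housekeeping lists moved little. Oxidative phosphorylation genes were higher in 11 of 33 cases and lower in 9, with a median of -0.01, but in 13 and 4 after median scaling (median 0.13). The share called was 60.6%, that of all genes tested. ATP5MC3 (0.68 ± 0.06) and COX7B (0.66 ± 0.06) were highest, and SDHA (-0.85 ± 0.05, second probe -0.48) and UQCRC1 (-0.53 ± 0.05) lowest. Ribosomal protein genes were higher in 14 of 33 and lower in 5 (median 0.04), but 26 and 0 after median scaling (median 0.27), so that the size of the shift moved with the scaling. The share called was 57.6%, against 60.6% of all genes. RPL13 (0.63 ± 0.07) and RPL14 (0.62 ± 0.06) were highest, with second probes at 0.15 and 0.88. RPS9 (-0.31 ± 0.06) and RPL4 (-0.28 ± 0.06) were lowest and were not called after median scaling.

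Hypoxia and glycolysis genes were lower in 14 of 24 cases and higher in 4 (median -0.21), with 75% called against 60.6% of all genes tested. PKM, pyruvate kinase, was at -1.09 ± 0.07, with further probes at -1.82 and -1.58, and VEGFA at -1.05 ± 0.14. BNIP3, a mitochondrial protein of hypoxia, was higher (0.38 ± 0.05). ALDOC, an aldolase, was higher on average (0.55 ± 0.09) but had group means of 8.55 and 8.25 in sets 1 and 2 of shATM, and was not called with the 4 set differences as replicates (adjusted p = 0.0594). Cholesterol synthesis genes were lower in 11 of 19 and higher in 4 (median -0.27), with 78.9% called. Called members ran from SC5D (-0.58 ± 0.04) and HMGCS1 (-0.56 ± 0.05) to CYP51A1 (0.79 ± 0.09). Of 23 genes of the integrated stress and unfolded protein response 17 were lower and 2 higher (median -0.26). ATF3, a stress-induced transcription factor, was at -0.97 ± 0.12 and PHGDH, of serine synthesis, at -0.90 ± 0.06, while DDIT4, an inhibitor of mTORC1, was higher by 0.74 ± 0.05. ATF4, the transcription factor after which the response is often named, was at 0.14 ± 0.05 and was not called with the 4 set differences as replicates (adjusted p = 0.248).

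The set difference was not the same size, or even the same direction, under every shRNA for part of the genes. The F test between the 4 set differences called 1777 genes (13.6%), of which 881 had the same sign under all 4. Called set differences of opposite direction under at least 2 shRNAs were found in 267 genes (2.05%). After median scaling these counts were 843 and 127. Against the mean of the other 3, the set difference was called in 935 genes for shATM (7.17%), 516 for shATR (3.96%), 712 for shCHK1 (5.46%) and 681 for shCHK2 (5.22%). These tests rest on the spread between 3 arrays alone.

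KYNU, kynureninase of tryptophan breakdown, had the widest fitted range. Its log2 intensity in set 1 was 10.75, 10.58 and 10.49 in shATM, 9.72, 9.78 and 9.81 in shATR, 9.09, 8.89 and 8.92 in shCHK1, and 10.99, 10.89 and 10.97 in shCHK2. In set 2 it was 8.08, 7.92 and 7.86, then 7.93, 7.90 and 8.06, then 10.13, 10.36 and 10.41, and last 10.30, 10.49 and 10.49. Set 2 was thus lower under shATM (-2.66 ± 0.10), shATR (-1.80 ± 0.10) and shCHK2 (-0.52 ± 0.10) and higher under shCHK1 (1.33 ± 0.10), with an F test adjusted p of 3.32e-13. Its second probe ran from -2.76 to 0.90.

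THY1 (CD90), a surface glycoprotein of fibroblasts and some stem cells, was 5.91, 5.96 and 5.84 in shATM set 1 and undetected in set 2, at least 1.84-fold lower there. Under shCHK1 it was undetected in set 1 and 6.89, 7.03 and 6.95 in set 2, at least 4.08-fold higher. In shATR the difference was 1.47 ± 0.10 and in shCHK2 0.26 ± 0.10, where both sets lay at 7.49 or above. GSPT2, a translation termination factor, followed the same order with -1.29, 1.64, 2.27 and 0.14 in shATM, shATR, shCHK1 and shCHK2, and IGFBP7, a secreted binding protein of insulin-like growth factors, with -1.16, 1.58, 2.23 and -0.79. CYFIP2, a subunit of the actin-regulating WAVE complex, ran differently, with 0.62, -1.25, 1.00 and 2.24. The sets overlapped in all of these genes when shRNAs were pooled.

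The other 3 of the 8 genes with the widest range were lower under every shRNA, but by unequal amounts. MMP9, gelatinase B, was 9.29, 8.82 and 9.15 in shATM set 1 and 6.11, 6.91 and 6.54 in shCHK1 set 1, against 6.13, 6.10 and 6.17 and 5.67, 5.86 and 5.82 in set 2. Its differences were -2.95, -3.82, -0.74 and -4.03 (each ± 0.18), and that of shCHK1 stood 2.86 ± 0.21 above the mean of the other 3. SPRR2D and SPRR2F, near-identical envelope precursors whose probes may share transcripts, both differed by -4.74 in shATM, and by -1.46 and -1.21 in shCHK1. They were detected on 4 and 1 of 12 set 2 arrays, so that their size was limited by background: SPRR2F was at least 18.8-fold lower in shATM and at least 2.80-fold in shCHK2.

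**Figure D5:**
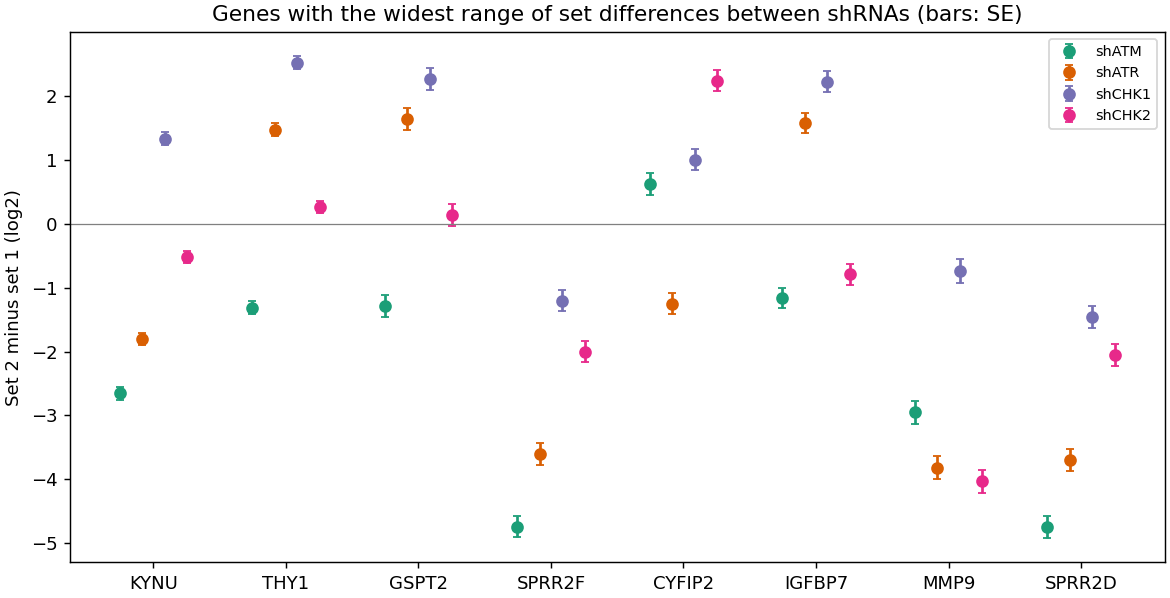
Points are the set differences (set 2 minus set 1, log2) of the 8 genes with the widest range between shRNAs, by shRNA, with bars for the SE of each (3 arrays against 3). KYNU, THY1, GSPT2, CYFIP2 and IGFBP7 have points on both sides of 0, while MMP9, SPRR2D and SPRR2F lie below it throughout; several THY1 and SPRR points are limited by background.

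Coding genes that were higher or lower under all 4 shRNAs had median lengths of 26.3 and 29.4 kb, against 29.02 kb for the rest. By chromosome, the median set difference ran from -0.14 on chromosome 20 (361 genes) to 0.10 on chromosome 4 (457 genes), where 14.4% of genes were higher under all 4. The share of genes that differed between shRNAs by the F test was highest on chromosomes 18 (26.1%), 5 (25.2%), 4 (22.98%) and 8 (21.9%), against 13.6% over all. On chromosome 5 the median was 0.09 in shATM, -0.17 in shATR, -0.07 in shCHK1 and 0.01 in shCHK2.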

How the data were processed

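Gene expression was measured on Illumina bead arrays. The deposited table without normalization holds linear intensities, each with a detection p-value beside it, per the file headers. The authors also deposited log2 values, whose columns share a median of 6.88 and correlate with the log2 intensity of their array at r of 0.998 or above. The scanner software is not given in the sources used here. Of 47231 probes, 30113 matched 1 gene symbol in the platform annotation, 8 several and 17110 none.

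The intensities of the 24 knockdown arrays were background corrected and quantile normalized with neqc of limma (3.58.1, R 4.3.3), with negative controls inferred from detection p-values and an offset of 16. Probes detected (p under 0.05) on at least 3 arrays were kept (25318), and each of 13040 genes was read from its kept probe with the highest mean. A model with 8 group means (16 residual degrees of freedom) gave the set difference in each shRNA, their average, the F test between them (3 degrees of freedom) and each shRNA against the other 3, two-sided, with Benjamini-Hochberg adjustment over all genes. The number of arrays limits the precision. The procedure was tested on simulated data.

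Genes named are the 10 higher and 10 lower with the largest smallest difference over the 4 shRNAs, the 8 with the widest range among those called by the F test, the targets and CCNE1, and up to 4 members (2 highest and 2 lowest called) of each of 28 lists (664 entries, 544 different genes tested). Members, lists and rules were chosen with earlier results of these data known. Replicate numbers do not pair the samples: deviations of same-numbered arrays correlated at -0.04 to 0.06 in 12 pairs. Alternatives covered the normalization, background, filter, probe choice, moderation, blocks and arrays left out.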

Additional observations from a re-analysis of the deposited data

Results flagged for a closer look

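The set difference differed between the shRNA labels in 1777 genes, by the F test between the 4 set differences. With 3 arrays per shRNA and set, which may be technical, an effect of the shRNA cannot be told apart from differences between cultures. The fitted range between the highest and the lowest of the 4 was 3.99 in KYNU, 3.84 in THY1, 3.56 in GSPT2, 3.54 in SPRR2F, 3.49 in CYFIP2, 3.39 in IGFBP7, 3.29 in MMP9 and 3.28 in SPRR2D on the log2 scale. KYNU, THY1, GSPT2, CYFIP2 and IGFBP7 moved in opposite directions under different shRNAs, and MMP9, SPRR2F and SPRR2D were lower in set 2 under each. The ranges of THY1, SPRR2F, SPRR2D, CYFIP2 and MMP9 include groups with no or only some arrays above background, so neither those sizes nor the order of the 8 is exact. After median scaling the F test called 843 genes. These 8 were selected as the widest ranges among genes called by that test, so their ranges are descriptions.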

How the results depend on the processing

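Of 5156 values of the 129 named genes and targets under 40 alternatives, 5049 kept their direction and their side of the threshold, 98 kept the direction but were no longer called, and 9 changed sign. Most of these alternatives left out a single array, a small change to an average, so the pooled count says little about the stricter fits. With the 4 set differences as replicates, the averages of KYNU, THY1, GSPT2, CYFIP2, IGFBP7 and CCNE1, among others, were not called (limma adjusted p from 0.218 to 0.526). After median scaling, 435 genes were higher under all 4 shRNAs, 843 were called by the F test and 127 in opposite directions. With the means per shRNA and set as data, 2206 genes were higher, and 6512 genes were called with the 3 arrays of a group as a random block (consensus correlation 0.211). EPCAM became 0.11 after median scaling and 0.17 with the mean of all kept probes, under which ATM became -0.10, ATR 0.11, RRM2B -0.10 and PSMB8 0.037. Leaving out shCHK1, IGFBP7 became -0.12 and CHEK1 0.032. Leaving out 1 array moved CHEK1 between -0.055 and 0.0067, the latter without the second shATM array of set 2. Beyond the probes averaged and the arrays left out, the cause was not tested.

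Among the lists, the 4 set differences as replicates left 26 of 29 keratinocyte differentiation genes lower, 10 of 13 metalloproteinase genes, 18 of 20 NRF2 genes and 12 of 13 basal genes. Under the same fit the higher members went from 7 to 1 in p53 targets, from 7 to 2 in mesenchymal genes, from 14 to 6 in ribosomal proteins and from 4 to 1 each in hypoxia, cholesterol and TGF-beta lists. Mitotic genes went to 7 higher and 2 lower. Without both arrays that stood apart, an alternative chosen after seeing the data, ribosomal proteins were 15 higher and 8 lower, and TGM1 was no longer called (adjusted p = 0.053).

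Leaving out 1 array at a time gave 7700 to 7955 genes called on average, 2077 to 2361 in all 4 shRNAs, 1450 to 1941 by the F test and 219 to 282 in opposite directions. With replicate number as a block, 3422 genes were higher and 4523 lower, and no call of a named gene changed. A slide block was not run, since the labels used here do not give the slide of each array. Genes near background, such as SPRR3, MMP3, THY1 and ATR, are limited by signal over background, and a p that misses the threshold does not show equal levels.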
